A study of Mus musculus with 47 samples.

Results

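The 9 genes described here encode the amyloid precursor family and the proteins that cut or sort it. They were taken by name from the count table and are 9 of its 35486 genes. App, Aplp1 and Aplp2 encode the precursor and its relatives, Bace1 and Adam10 the main β- and α-secretase, Psen2, Ncstn and Aph1a subunits of γ-secretase, and Sorl1 a sorting receptor. All 9 passed the filter on low counts, which left 17778 genes to test.

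The series measured mRNA in the whole hippocampus of 47 male C57BL/6J mice by unstranded Smart-Seq2 sequencing. Mice were given platelet factor 4 (PF4), a chemokine that platelets release, or vehicle (Veh) by injection into the abdomen before each day of training and testing. The groups were Young Veh (n = 13, age 3.75 to 5.26 months), Young PF4 (n = 12, 4.08 to 5.03 months), Old Veh (n = 12, 17.47 to 19.97 months) and Old PF4 (n = 10, 17.4 to 20.23 months). The labels name no transgene or deletion in any group. Each library was treated as 1 mouse, which the titles imply but no label states, so p-values measure the spread between these libraries. In whole tissue, fewer cells of a type and less RNA per cell cannot be told apart.

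App is a membrane protein of neurons and glia. Cutting by Bace1 and then by γ-secretase releases amyloid β, while cutting by Adam10 falls inside the amyloid β segment and prevents its release. γ-secretase is a complex of a presenilin such as Psen2, nicastrin (Ncstn), an Aph1 protein and Psenen, and it also cuts Notch receptors and many other membrane stubs. Sorl1 carries App between the Golgi and endosomes, away from the compartments where Bace1 cuts it.

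The coding sequence shows what the precursor family shares and what is particular to App. All 3 genes encode the same 6-residue sorting motif in the cytoplasmic tail, which binds adaptors such as the Apba, Apbb and Dab1 proteins, but only the App coding sequence held the core of amyloid β. The stretches below were read from the GENCODE M21 transcripts (GRCm38) on the minus strand, 5′ to 3′, with the codons of the tail motif or of the amyloid β core in capitals.
App tail motif, exon 18 of 18, chr16:84955349-84955378: ggaTATGAGAATCCAACTTACaagttcttt
Aplp1 tail motif, exon 17 of 17, chr7:30435308-30435337: ggcTATGAGAACCCCACCTACcgcttcctg
Aplp2 tail motif, exon 17 of 17, chr9:31150889-31150918: ggtTATGAAAACCCAACCTACaaatacctg
App amyloid β core, exon 16 (chr16:84965670-84965678) joined to exon 17 (chr16:84962848-84962868): caaAAACTGGTGTTCTTTgctgaagatgtg
The 18 motif bases were identical at 15 positions between App and Aplp1, at 15 between App and Aplp2, and at 16 between Aplp1 and Aplp2. None of the 50-base words of any of the 9 longest transcripts occurred in another of the 9, so reads of one could not be exchanged for reads of another over such a length.

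Total counts ran from 2242879 to 21112908 per library (median 10374007), and 8 libraries held under 5000000. Neuron markers stood at similar summed levels in the 4 groups (medians 6026 to 6352 CPM, counts scaled to a common library size), none was at 0, and 0 of 8 were called in either age comparison. A total of 2 libraries stood apart in a length index, the mean log2 CPM of long-transcript genes relative to short ones. Young Veh replicate 4 was at -0.348 and Old PF4 replicate 8 at -0.228, and the other 45 lay between -0.163 and 0.177. Among the 9 genes, these 2 libraries held the lowest App, Aplp1, Aplp2 and Sorl1 and the highest Adam10 of their groups. Where they moved App, Aplp1 or Adam10 most, the differences are also given without them.

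The precursors were among the most abundant transcripts of the tissue, and the γ-secretase subunits were much scarcer. Per kilobase of the longest transcript, the median level was 636 CPM for Aplp1, 183 for App and 175 for Aplp2, at or above the 98.8th percentile of the genes tested. Sorl1 stood at 32.8, Ncstn at 26.8, Bace1 at 25.9 and Adam10 at 21.4 CPM per kilobase. Psen2 (6.71) and Aph1a (2.17) came last. Other genes share 47.9% of the 50-base words of Aph1a and 30.7% of those of Bace1. How the counter treated such reads is not given, so the levels of these 2 genes are uncertain. App and Aplp2 overlapped over libraries (139 to 275 against 156 to 209), as did Sorl1, Ncstn, Bace1 and Adam10 (18.5 to 38.4 in all).

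**Figure D1:**
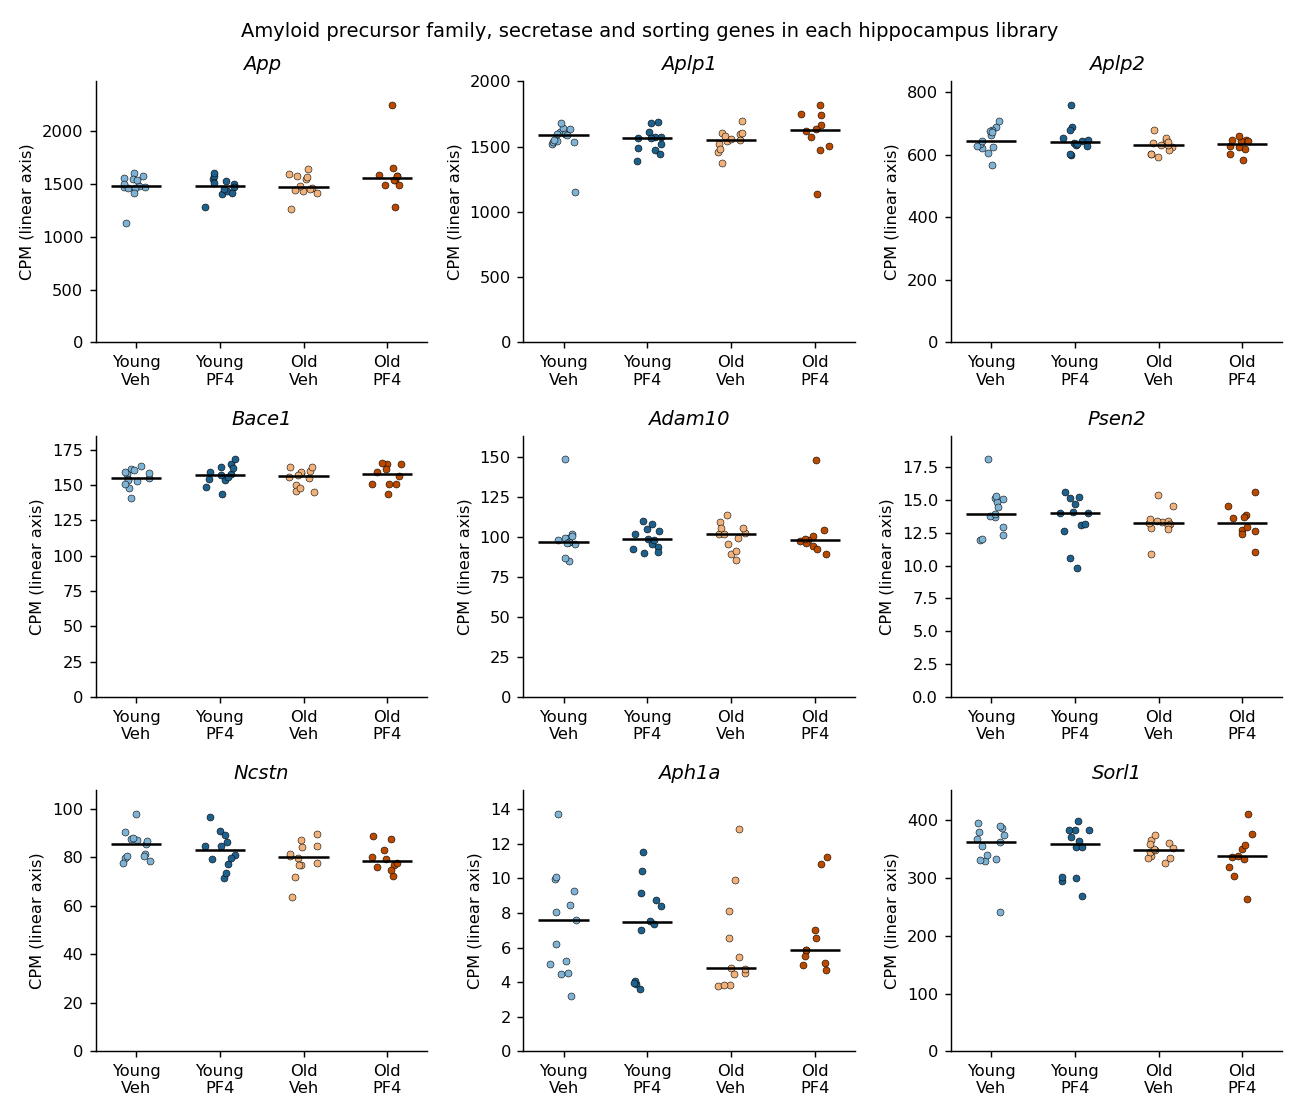
CPM of each of the 9 genes (linear vertical axes from 0) in every library of the 4 groups. Points are libraries and bars group medians. The groups overlap in every panel, Aph1a has the widest relative spread, and single high or low libraries stand out for App, Aplp1 and Adam10.

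With age in vehicle mice, the precursors and their first-cut enzymes stayed at nearly the same level and the γ-secretase subunits were slightly lower without passing the test. None of the 9 genes was called in Old Veh against Young Veh by edgeR's quasi-likelihood test (Benjamini-Hochberg adjusted p below 0.05), where 492 of all genes tested (2.77%) were. None of the 9 had an unadjusted p under 0.05 (2699 of all genes did), and DESeq2 called none of them. Of the 9 estimates 2 were above 0 and 7 below, with a median of -0.02 on the log2 scale, against -0.01 over all genes. App had a lowest, median and highest level of 1132, 1479 and 1600 CPM in Young Veh. In Old Veh these were 1258, 1468 and 1637 CPM. The 12 old libraries divided evenly around the young median, with 6 above and 6 below. The fitted log2 difference was 0.01 (95% interval -0.09 to 0.12). Without the 2 libraries of low length index it was -0.01, and that of Aplp1 was -0.03 in place of -0.01.

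Bace1, whose product makes the rate-limiting cut towards amyloid β, was the steadiest of the 9 genes. Its levels were 141, 154.7 and 163.2 CPM (lowest, median and highest) in Young Veh and 144.8, 156.6 and 162.8 CPM in Old Veh. The 95% interval of the log2 difference, -0.06 to 0.06, was the narrowest of the 9, and the pooled SD of log2 CPM within groups was 0.0628. About 32.5% of the exonic bases of Bace1 lie under genes on the opposite strand, mainly Rnf214 and Gm49338, and unstranded reads from there cannot be assigned to a strand.

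Adam10 (log2 difference -0.00, 95% interval -0.13 to 0.13), Aplp1 (-0.01, -0.10 to 0.09), Aplp2 (-0.04, -0.11 to 0.03) and Sorl1 (-0.02, -0.14 to 0.10) had estimates near 0 over all libraries. For these genes the intervals leave room for changes of up to about 0.14 on the log2 scale. Sorl1 kept a narrower range in Old Veh (325.5 to 374.8 CPM) than in Young Veh (241.6 to 394.9 CPM), and the lowest young value came from replicate 4, one of the 2 libraries that stood apart. The Sorl1 difference was -0.06 without it, -0.00 without Young Veh replicate 2 and -0.07 with the length index as a covariate. The Aplp2 difference was -0.06 without Young Veh replicate 4 (edgeR p = 0.09443). It was -0.06 with the length index as a covariate (edgeR p = 0.05419), and neither was called. The same library held the highest Adam10 of its group (148.5 CPM, against a median of 96.94). The Adam10 difference was 0.06 without it, and 0.06 without both libraries of low length index (SE 0.0392, edgeR p = 0.111, adjusted p = 0.3954).

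Ncstn, which holds the substrates of γ-secretase, came closest to the threshold with age. Its levels were 77.55, 85.38 and 98.05 CPM (lowest, median and highest) in Young Veh. In Old Veh they were 63.66, 80.28 and 89.52 CPM. In Old Veh, 10 of 12 libraries lay below the young median and 4 lay below every young library. The log2 difference was -0.09 (SE 0.0464, edgeR p = 0.0692, adjusted p = 0.377). It was -0.04 with the choroid plexus score, defined below, as a covariate.

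Psen2, a presenilin, gave the same size of difference at a lower level. Its levels were 11.99, 13.92 and 18.1 CPM in Young Veh and 10.91, 13.27 and 15.35 CPM in Old Veh. Its log2 difference was -0.09 (SE 0.0664), or -0.05 without Young Veh replicate 4, which held the 18.1 CPM, and -0.04 with the length index as a covariate. In Old Veh, 10 of 12 old libraries lay below the young median with 1 below every young library. As few as 31 reads supported the gene in a Young Veh library and 36 in an Old Veh one.

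**Figure D2:**
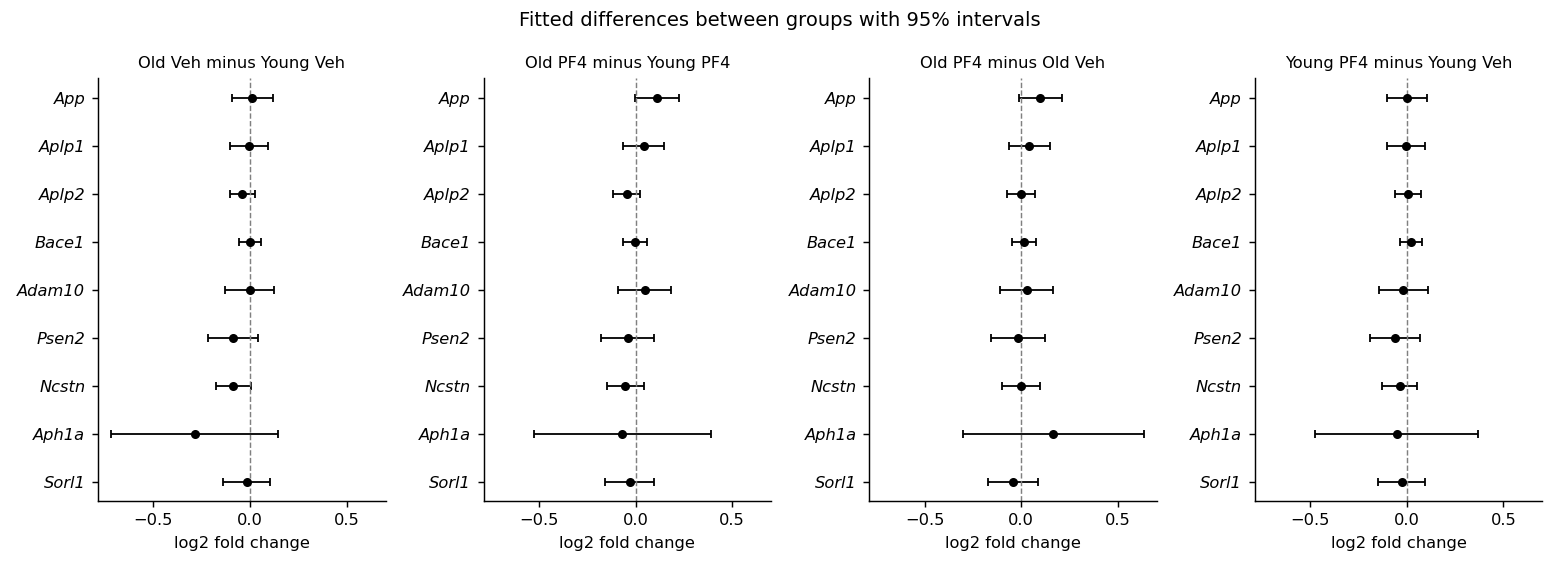
Log2 fold change of the 9 genes (horizontal axis) in 4 comparisons of groups, from edgeR with 95% intervals as bars. Every interval includes 0, those of Bace1 are the narrowest and those of Aph1a the widest. App lies furthest to the right among the other 8 genes in both comparisons with Old PF4.

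In the PF4 mice, which are other animals than those of the vehicle contrast but share its fit and estimate of spread, App was the gene closest to the threshold with age. None of the 9 genes was called in Old PF4 against Young PF4, beside 59 of all genes tested (0.332%), and none had an unadjusted p under 0.05 (1471 of all genes did) or was called by DESeq2. App was at 1283, 1480 and 1597 CPM (lowest, median and highest) in Young PF4. In Old PF4 it was at 1277, 1552 and 2244 CPM. In Old PF4, 9 of 10 libraries lay above the young median, 2 lay above every young library and 1 lay below every one. The log2 difference was 0.11 (SE 0.0571, edgeR p = 0.057, adjusted p = 0.62). The other 8 genes had an edgeR p of at least 0.203.

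Between PF4 and vehicle in old mice none of the 9 genes passed the threshold, and App again had the smallest p. None was called in Old PF4 against Old Veh, beside 6 of all genes tested (0.0337%), and none had an unadjusted p under 0.05 (1102 of all genes did) or was called by DESeq2. App was higher by 0.10 on the log2 scale (SE 0.0571, edgeR p = 0.0916, adjusted p = 0.878), with 9 of 10 Old PF4 libraries above the Old Veh median. This comparison and the one between PF4 ages share the 10 Old PF4 libraries. Bace1 differed by 0.02 (95% interval -0.05 to 0.08), Aplp2 by 0.00 (-0.07 to 0.07) and Ncstn by -0.00 (-0.10 to 0.10).

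The App difference in Old PF4 turned on single libraries. Replicate 3 of Old PF4 held 2244 CPM, against 1277 to 1647 in the other 9, and without it the difference from Old Veh was 0.03 and that from Young PF4 0.05. Without replicate 8 of Old PF4, of low length index, they were 0.13 and 0.14. Without both libraries of low length index, App differed from Young PF4 by 0.15 (edgeR p = 0.005496, adjusted p = 0.2232). It then differed from Old Veh by 0.13 (edgeR p = 0.01192, adjusted p = 0.4375) and Aplp1 by 0.09 (p = 0.02438, adjusted p = 0.5366), while Aplp1 differed from Young PF4 by 0.09 (p = 0.02242, adjusted p = 0.3778). Adam10 changed sign, from 0.03 to -0.05 against Old Veh and from 0.05 to -0.03 against Young PF4. None of the 3 genes was called in any of the alternative fits.

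In young mice none of the 9 genes was called in Young PF4 against Young Veh, where none of the genes tested was (0%). Over all genes, 213 had an unadjusted p under 0.05 by edgeR, and DESeq2 called 0. Outside Aph1a the log2 differences lay between -0.06 (Psen2) and 0.02 (Bace1), and all 8 intervals fell between -0.19 and 0.11. Adam10 went from -0.02 to 0.04 without the 2 libraries of low length index. Bace1 medians were 154.7 CPM in Young Veh and 157.3 CPM in Young PF4.

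The effect of PF4 was not shown to differ between ages for any of the 9 genes. None was called in the test of that difference, in which none of the genes tested passed (0%), with 707 at an unadjusted p under 0.05 by edgeR and 0 called by DESeq2. Apart from Aph1a, the largest estimate was that of App, 0.10 on the log2 scale (95% interval -0.05 to 0.25). It was 0.03 without Old PF4 replicate 3 and 0.16 without both libraries of low length index (edgeR p = 0.02478, adjusted p = 0.8006). Without those libraries Aplp1 went from 0.05 to 0.12 (p = 0.02062, adjusted p = 0.7799) and Adam10 from 0.05 to -0.09 (p = 0.1201, adjusted p = 0.8709). The median over the 9 genes was 0.05, against 0.01 over all genes tested.

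Ratios within a library, which need no scaling between libraries, gave no call either. The log2 ratio of Bace1 to Adam10 counts, the pair that competes for App, was 0.642 ± 0.234 in Young Veh, 0.67 ± 0.132 in Young PF4, 0.632 ± 0.104 in Old Veh and 0.633 ± 0.229 in Old PF4 (mean ± SD). The lowest value was -0.0746 in Young Veh (replicate 4) and 0.027 in Old PF4 (replicate 8). These are the 2 libraries of low length index, and the highest values of these groups were 0.921 and 0.8. Without Young Veh replicate 4, Old Veh minus Young Veh went from -0.0105 to -0.0703. Young PF4 minus Young Veh then went from 0.0275 to -0.0323. Without Old PF4 replicate 8, Old PF4 minus Old Veh went from 0.000733 to 0.068. Old PF4 minus Young PF4 then went from -0.0373 to 0.03. Of 16 differences between groups (4 ratios in 4 comparisons), the smallest p was that of Aplp2 to App in Old PF4 against Young PF4, -0.145 on the log2 scale (two-sided permutation test, p = 0.0473, adjusted p = 0.757). Without Old PF4 replicate 3, the library of high App, this difference was -0.087.

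Aph1a, which encodes an Aph1 subunit of γ-secretase, had the widest spread of the 9 genes. It had 3.222, 7.599 and 13.74 CPM (lowest, median and highest) in Young Veh and 3.608, 7.456 and 11.54 CPM in Young PF4. In Old Veh it had 3.794, 4.818 and 12.86 CPM, and in Old PF4 4.696, 5.873 and 11.22 CPM. The 4 groups covered nearly the same range, although the medians were lower in old mice. Its SD of log2 CPM within groups was 0.548, while the next widest gene, Sorl1, had 0.161. Old Veh differed from Young Veh by -0.29 on the log2 scale (95% interval -0.72 to 0.15), and by -0.49 without Old Veh replicate 10 and -0.16 without Young Veh replicate 4. Between PF4 and vehicle it differed by 0.17 in old mice (95% interval -0.30 to 0.63) and by -0.05 in young mice (-0.47 to 0.37). Leaving out 1 library moved the old value from 0.05 (without Old PF4 replicate 11) to 0.38 (without Old Veh replicate 10), and the young one from -0.14 (without Young PF4 replicate 4) to 0.08 (without Young Veh replicate 4).

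The reads counted for Aph1a moved with those of its neighbour Car14 and with choroid plexus tissue. Aph1a (chr3:95893969-95898288, plus strand) shares 445 exonic bases at its 3′ end with Car14, a carbonic anhydrase gene on the minus strand, and reads without strand cannot be told apart there. Of the 50-base words of Aph1a, 47.9% also occur in Car14, in the processed pseudogene Gm15429, whose counts were not analysed here, or in Jagn1. Over all libraries 3211 reads were counted for Aph1a and 10632 for Car14.

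The choroid plexus score, the mean log2 CPM of 10 marker genes of that tissue such as Ttr, separated the libraries into 24 above 4 and 23 below, with none between 3.35 and 4.165. That limit was set after the scores were seen. Every library above it held more Aph1a (6.212 to 13.74 CPM) than every library below it (3.222 to 5.886 CPM). Above the limit lay 8 of 13 Young Veh, 8 of 12 Young PF4, 4 of 12 Old Veh and 4 of 10 Old PF4 libraries.

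Within each class the 4 group medians of Aph1a spanned a narrower range of CPM than over all libraries. Above the limit they were 8.889 CPM in Young Veh, 8.576 in Young PF4, 9.011 in Old Veh and 8.913 in Old PF4. Below it they were 4.554, 3.902, 4.484 and 5.315 CPM in the same order. There all 6 Old PF4 libraries (4.696 to 5.886 CPM) lay above all 4 Young PF4 libraries (3.608 to 4.097 CPM). Over all libraries the median was lower in Old PF4 (5.873 CPM) than in Young PF4 (7.456 CPM). The summed level of the 10 markers ran from 12.09 to 4053 CPM in Young Veh and from 94.64 to 3463 in Young PF4. It ran from 15.12 to 4301 CPM in Old Veh and from 25.47 to 3345 in Old PF4, with no marker at 0 in a group. The medians were far apart, at 1950 CPM in Young Veh, 2407 in Young PF4, 47.15 in Old Veh and 66.13 in Old PF4.

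Aph1a also followed Car14 within the libraries above the limit, and less closely within those below it, where rho did not pass. Pearson's r of values centred on group means was 0.858 in the 24 libraries above the limit (Spearman's rho 0.841, permutation p = 2e-05 and 3e-05, adjusted p = 8e-05 and 0.00012). It was 0.811 without the 2 libraries of most extreme Car14. In the 23 below it, r was 0.539 (rho 0.461, p = 0.0193 and 0.0378, adjusted p = 0.0257 and 0.0504 over 4 relations). Without the 2 most extreme, r was 0.451. With the score itself r was 0.67 above the limit (rho 0.683, permutation p = 0.00236 and 0.0026, adjusted p = 0.00472 and 0.0052; r = 0.551 without the 2 most extreme). Below it r was 0.399 (rho 0.143, permutation p = 0.193 and 0.568, adjusted p = 0.193 and 0.568; r = 0.0361 without the 2 most extreme).

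With the score as a covariate, the age difference of Aph1a turned its sign. It was 0.16 (SE 0.115) in vehicle mice and 0.37 in PF4 mice (edgeR p = 0.003041, adjusted p = 0.2078), and neither was called. The part of Car14 and of choroid plexus in these differences was not tested beyond this.

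**Figure D3:**
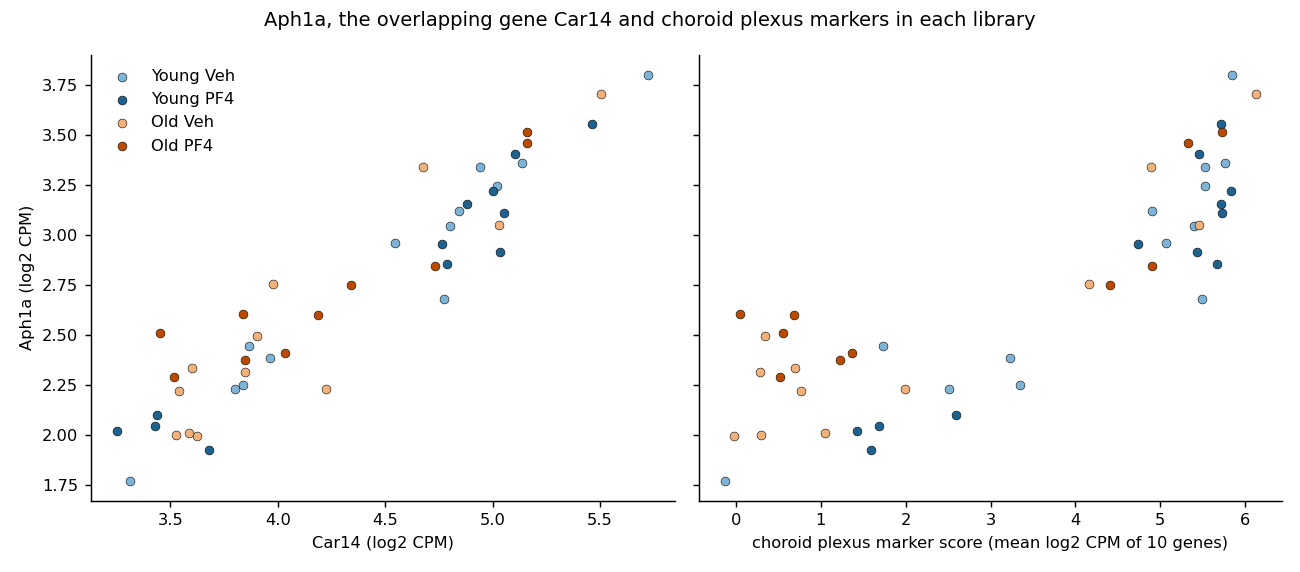
Log2 CPM of Aph1a (vertical axis) against log2 CPM of Car14 (left) and the choroid plexus marker score (right), 1 point per library, coloured by group. Aph1a rises with Car14 in all 4 groups, and the 24 libraries with a score above 4 hold all values of Aph1a above those of the other 23.

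Among mice of one group, many of the 9 genes varied together or against each other. Of 36 pairs, 17 were correlated over the 47 libraries after centring on group means (permutation within groups, adjusted p below 0.05), 6 positively and 11 negatively. These pairs had an absolute r of at least 0.328, as did 18.4% of all pairs of genes tested, so correlations above this limit were common. The 17 were counted by Pearson's r. By rho, Aplp1 with Psen2 and Adam10 with Sorl1 did not pass (permutation test, adjusted p = 0.127 for both). Nor did Bace1 with Aplp2 and with Aph1a (adjusted p = 0.106 for both). Values of one library share its depth and RNA, and the part of these in the correlations was not tested beyond the values given here. Without the 8 libraries under 5000000 counts 16 pairs passed, of which 15 were among the 17 with the same sign. Aplp1, App and Sorl1 varied together, and Ncstn and Adam10 varied against them.

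Aplp1 and Sorl1 had r = 0.836 (rho = 0.758, permutation p = 1e-05 for both, the smallest the resamples can give, adjusted p = 6e-05 for r and 0.00012 for rho). Aplp1 and App had r = 0.758 (rho 0.661) and App and Sorl1 0.633 (rho 0.535). Ncstn was negatively correlated with Aplp1 (r = -0.617), App (-0.632) and Sorl1 (-0.59), and Adam10 positively with Ncstn (0.541). Leaving out the 2 libraries farthest from the median of the first gene gave 0.749 for Aplp1 and Sorl1, 0.764 for App and Aplp1, and -0.678 for App and Ncstn.

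The negative relations of Adam10 rested in part on the libraries of low length index. Aplp1 and Adam10 had r = -0.824 over all libraries (rho -0.481) and -0.508 without Young Veh replicate 4 and Old PF4 replicate 8. Adam10 and Sorl1 went from -0.605 (rho -0.268) to -0.218, which no longer passed (adjusted p = 0.235). Without these libraries 12 pairs passed, of which 10 were among the 17 with the same sign. The pairs that then passed for the first time joined Aplp2 negatively to Aplp1 (-0.398) and Sorl1 (-0.412).

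As a description, the centred length index had r = 0.582 with Sorl1, 0.532 with Aplp1, 0.492 with Aplp2, 0.47 with Bace1 and 0.468 with App. It had -0.473 with Adam10 and -0.434 with Psen2. After its regression was removed, 12 of the 17 pairs still passed.

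**Figure D4:**
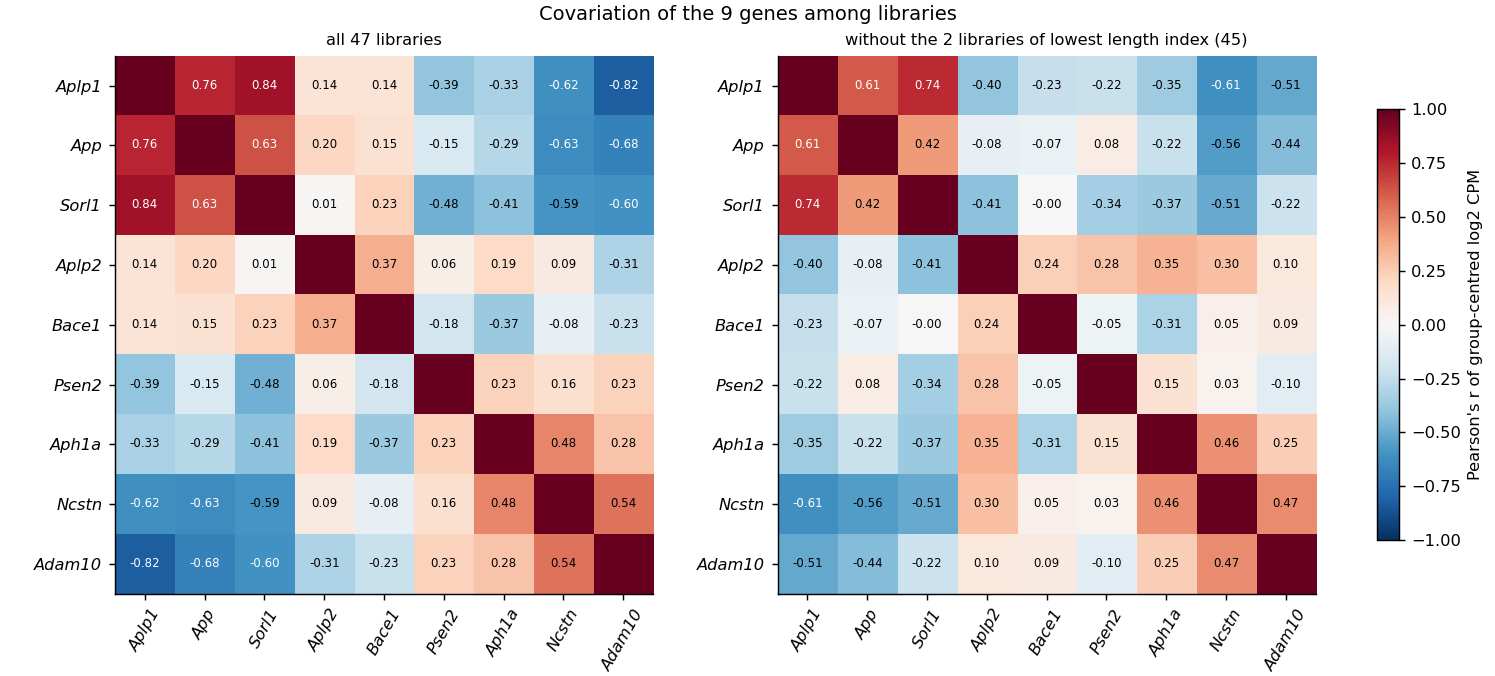
Pearson's r of group-centred log2 CPM for each pair of the 9 genes, over all 47 libraries (left) and without the 2 libraries of lowest length index (right), coloured from blue (negative) to red (positive). Aplp1, App and Sorl1 form a positive block, and Ncstn and Adam10 are negative against it. Those r are smaller on the right.

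Across all genes tested, the closest patterns to Sorl1 by the same measure were Sez6l (r = 0.909), Mink1 (0.891) and Disp2 (0.888). Those closest to App were Gm49227 (0.837), Zfp523 (0.826) and Lhfpl4 (0.825). Gm49227 is an antisense gene inside App that shares 113 exonic bases with it, so some of their reads cannot be told apart. Those closest to Bace1 were Gm38260 (0.702), Tppp (0.674) and Gm48611 (0.654). Each r is over the same 47 libraries and is given as a description.

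The wider pathway was read from gene lists. Psen2, Ncstn, Aph1a and the other γ-secretase genes described here, Aph1b, Aph1c and Psenen, all had estimates below 0 in Old Veh against Young Veh, and none was called. Aph1c, a mouse copy of Aph1b, differed by -0.21 on the log2 scale (edgeR p = 0.0464, adjusted p = 0.319). Aph1b differed by -0.05, and Psenen, the smallest subunit, by -0.01. Aph1b and Aph1c are near-identical copies, so the split of reads between them is uncertain.

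Of 83 pathway genes tested, 3 were called higher with age in vehicle mice (3.61%), against 2.16% of all genes tested called higher, so the share was near the background. Rtn4, a reticulon of the endoplasmic reticulum whose family binds Bace1, rose by 0.16 on the log2 scale (SE 0.0336, edgeR adjusted p = 0.00357). Its levels were 302.1, 335.5 and 364.1 CPM in Young Veh and 340, 368.4 and 413 CPM in Old Veh, with 7 of 12 old libraries above every young one. Dab1, an adaptor of reelin receptors that binds the App tail motif shown above, rose by 0.14 (SE 0.0376, adjusted p = 0.0257), from a median of 161.8 to 175.6 CPM. Itm2c, a BRI family protein that binds App, rose by 0.11 (SE 0.0329, adjusted p = 0.0491), from a median of 728.9 to 774.1 CPM. For each of the 3, all 12 Old Veh libraries lay above the Young Veh median.

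In the PF4 mice the age differences of these genes were 0.12 for Rtn4 (adjusted p = 0.14), 0.09 for Dab1 (0.558) and 0.04 for Itm2c (0.818), by edgeR. Their difference from the vehicle mice did not pass (edgeR p = 0.491, 0.314 and 0.162). In vehicle mice Itm2c was not called in 18 of the 47 fits without 1 library (adjusted p 0.05114 to 0.1139). Those left out Old Veh replicates 1, 2, 5, 6, 7, 11 or 12, Young Veh replicates 1, 3, 5, 6, 8, 11 or 13, Young PF4 replicate 3, or Old PF4 replicates 5, 7 or 10. With the choroid plexus score as a covariate neither Dab1 (0.11, adjusted p = 0.1361) nor Itm2c (0.08, adjusted p = 0.1982) was called. With the replicate block neither was called (adjusted p = 0.05939 and 0.09994), nor when every gene with a read was tested (0.06215 and 0.1293). Itm2c was also lost with the groups fitted alone (0.06776) and without the libraries under 5000000 counts (0.0764). No gene of any pathway list was called in the other 4 comparisons. C1qa and C1qb, of 8 microglia markers, were called higher in Old Veh, where the summed level of the list was 450.7 to 599.3 CPM against 408 to 499.8 CPM in Young Veh. Of 8 astrocyte markers, Slc1a2 (0.19, adjusted p = 0.000274) and S100b (0.24, adjusted p = 0.0426) were called higher and Aldh1l1 (-0.19, adjusted p = 0.0465) lower by edgeR. The summed astrocyte level was 4366 to 5302 CPM in Old Veh against 4079 to 5045 CPM in Young Veh. The part of cell composition in the changes of pathway genes was not tested.

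**Figure D5:**
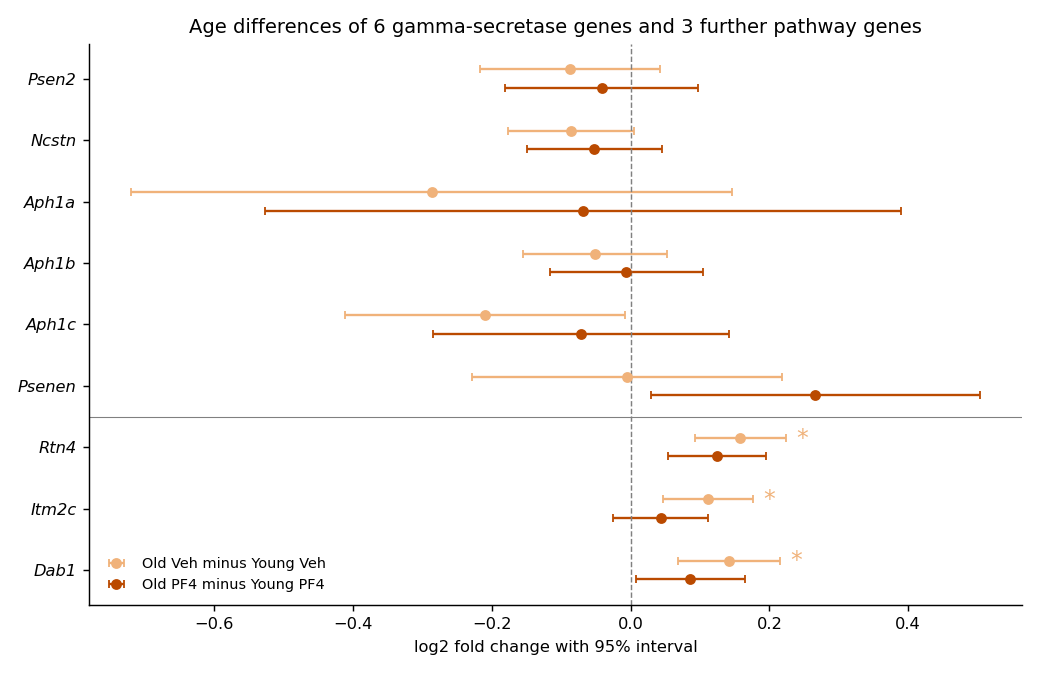
Log2 fold change with age and its 95% interval (horizontal axis) for 6 γ-secretase genes (above the line) and for Rtn4, Itm2c and Dab1, in vehicle mice (light) and PF4 mice (dark). Asterisks mark calls by edgeR. Only Rtn4, Itm2c and Dab1 carry one, each in vehicle mice.

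Most other lists held no call in Old Veh against Young Veh. Their genes of smallest p were Bace2, the relative of Bace1 (0.18, edgeR p = 0.296), Adam17, an α-secretase (-0.15, p = 0.0643), Sort1, a receptor of the same family as Sorl1 (0.17, p = 0.016, adjusted p = 0.191), and Snx1, a retromer-associated sorting nexin (-0.07, p = 0.0819). Tspan33, a tetraspanin that guides Adam10, differed by -0.15 (p = 0.197) and Ece1, a protease that degrades amyloid β, by -0.08 (p = 0.0992). Nrcam, an adhesion protein cut by secretases, differed by 0.09 (p = 0.00551, adjusted p = 0.109). Retromer, which returns Sorl1 from endosomes, had 0 of 8 genes called, and amyloid β degradation and binding 0 of 12 tested, with median log2 differences of -0.00 and -0.04.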

How the data were processed

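Hippocampal RNA was reverse transcribed by Smart-Seq2 and tagmented with Nextera XT without strand, per the labels. The deposited table holds unnormalized gene counts for 47 libraries. The submitters' processing notes name Trim Galore 0.3.7, STAR 2.5.3a, DESeq2 and GRCm38, and the counter and its annotation are not given in the sources used here. The authors had left out libraries under a minimum of reads. No deposited column was left unused.

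Counts were tested as deposited in edgeR 4.0.16 (R 4.3.3), by a quasi-likelihood fit of the 4 groups with TMM scaling and filterByExpr. Calls needed an adjusted p under 0.05 (Benjamini-Hochberg, over the 17778 genes that passed). The SE was the absolute log2 fold change over the root of F, and 95% intervals were normal. CPM used TMM library sizes, and log2 CPM a prior count of 2. Group differences of log2 ratios (0.5 added to counts) and correlations used two-sided permutation tests with 100000 resamples. Lengths, overlaps, coordinates and sequences came from GENCODE M21 (GRCm38), in which 99.3% of the genes tested had a length. The length index compared transcripts of at least 4594 bases with those of at most 2006. Aph1a had the fewest reads of the 9 genes, from 18 to 255 per library.

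Pathway lists covered 11 groups of genes, and marker lists neurons, oligodendrocytes, astrocytes, microglia, endothelium, choroid plexus and blood. Named were the 9 genes, pathway genes called in any comparison (1 item is not reported here), and, for a list without calls, its gene of smallest p in Old Veh against Young Veh. The 3 genes of most similar pattern were named for App, Sorl1 and Bace1. The 9 genes and all lists were chosen with earlier results of these data known. Alternatives were DESeq2 1.42.0, its size factors, 2 other filters, the compared groups alone, a replicate block, 3 covariates (length index, choroid plexus score, an indicator of shallow libraries), and fits without the shallow libraries or without each library. Leaving out the 2 libraries of lowest length index, or each library for the ratios, and the score limit of 4 were chosen after seeing the data. No label ties equal replicate numbers to a shared litter, batch or day, and same-numbered libraries of different groups had a median correlation of -0.0128 (66 pairs), against -0.00627 for others. No 2 columns were identical. The scripts were tested on simulated data. In counts simulated for Old Veh against Young Veh, 37.3% of changes of 0.25 on the log2 scale were called, and 97% of those of 0.5. Smaller changes were not simulated, so the absence of calls does not show that small differences are absent.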

Additional observations from a re-analysis of the deposited data

Results flagged for a closer look

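A highest or lowest library stood far from the rest of its group by Dixon's ratio, taken on log2 CPM, in 3 of 9 tests, all in Old PF4, the only group of a size the ratio covers. Chance flags about 1 test in 20, and tests of genes that vary together are not independent. App was at 2244 CPM in Old PF4 replicate 3, against 1277 to 1647 CPM in the other 9 libraries (ratio 0.548). Aplp1 was at 1136 CPM in Old PF4 replicate 8, against 1477 to 1821 CPM (0.557). Adam10 was at 148.1 CPM in the same replicate 8, against 89.6 to 104.3 CPM (0.697). Replicate 8 had the second lowest length index of the 47 libraries (-0.228), and replicate 3 had -0.0115. Their totals were 12380047 and 12165090 counts, so neither was shallow.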

How the results depend on the processing

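None of the 9 genes was called in any of the 5 comparisons under the 11 alternatives (10 for the difference of PF4 effects, which has no fit of the compared groups alone) or in any of the 47 fits without 1 library. The count was therefore 0 throughout, with a range of 0 to 0. The replicate block gave 453, 90, 10, 0 and 0 calls over all genes in the order of the report, where the fit without it gave 492, 59, 6, 0 and 0, and it changed no call among the 9 genes. It ended the calls of Dab1 and Itm2c. Rtn4 was called under all 11 alternatives, Dab1 under 8 and Itm2c under 6, with no change of direction. Over all genes, Old Veh against Young Veh gave 901 calls with the length index as a covariate, 807 without the 2 libraries of lowest length index (chosen after seeing the data) and 176 without the 8 shallow libraries. Old PF4 against Young PF4 gave 98 and 89 in the first 2 of these, 90 by DESeq2 and 21 with the groups fitted alone, and Old PF4 against Old Veh from 0 to 24. The difference of PF4 effects gave 1 call when every gene with a read was tested. The cause was not tested. The number of correlated pairs ran from 12 to 17, and no ratio passed in any setting that was given a p-value. Leaving out each library gave differences of the ratios only. Some alternatives gave an unadjusted p under 0.05, among them that of App with the length index as a covariate (0.14 against Old Veh, p = 0.01139, adjusted p = 0.4764). Aph1a had the widest intervals, and the unstranded reads of Aph1a and Bace1 include bases shared with other genes.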
